A study of Mus musculus with 10 samples.

Results

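The genes described here are 56 parts of the machinery that starts transcription of protein-coding genes: 12 subunits of RNA polymerase II, 17 subunits of the general transcription factors TFIIA, TFIIB, TFIIE, TFIIF and TFIIH, and 27 subunits of Mediator. They were taken by symbol from the 54456 genes of the deposited table. TFIID and Med12 were left out of the choice. Its rule used no measured value, but it was made with earlier results of these data known. Each symbol had 1 row and a match in the GENCODE M21 annotation. All 56 passed the filter on low values, a mean of at least 10 normalised counts over the libraries.

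The samples were C57BL/6J mouse embryonic stem cells (mESC), and their total RNA was sequenced with a stranded protocol that removes ribosomal RNA. The study addresses X-linked dystonia parkinsonism, a disorder linked to an SVA retrotransposon, a mobile element that inserts into genomes, within human TAF1. The wild-type line MK6 gave 1 library, and conv-dSVA_D, conv-dSVA_F and conv-dSVA_F&D gave 2 libraries each, called line D, line F and line F&D from here on. All converted lines share loxP[Taf1_i24], the vector entry LPSwapinRed_pUC19[Taf1_3_4], a humanised Taf1 allele marked hTAF1~mousified and converted, and exposure to pSpCas9, pSpCas9GFP and the Cre plasmid pCAGiCre. They differ in the allele's SVA entries, which are dSVA2 in conv-dSVA_D, SVAdel in conv-dSVA_F and both in conv-dSVA_F&D. By their names these entries mark deletions of SVA elements, not added ones. Every culture grew on gelatin in serum medium with LIF, CHIR99021 and PD0325901. Each genotype has 1 line name in the labels and no clone is named, so line or clone and genotype cannot be told apart. Nor do they say that 2 libraries of a line came from separate cultures, so p-values measure only the spread of these samples, part of which may be technical. The pre-conversion stem cell library and 2 striatal libraries were not analysed here.

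RNA polymerase II cannot find a promoter by itself. TFIID binds the promoter, TFIIA and TFIIB stabilise it and receive the polymerase with TFIIF, TFIIE recruits TFIIH, and TFIIH opens the DNA and phosphorylates the tail of the largest polymerase subunit. Mediator, built of a head, a middle, a tail, a scaffold and a separable kinase module, connects activators at enhancers to this assembly. Embryonic stem cells are known to depend on Mediator at the enhancers of their pluripotency genes. TAF1 is the largest TFIID subunit.

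Libraries held 16588467 to 26562418 reads assigned to genes, recovered from the deposited values. Taf1, the edited gene, stood at 2898 normalised counts in the wild type, 362 and 418 in line D, 501 and 589 in line F, and 1116 and 1088 in line F&D. The sources used here do not say whether reads from its humanised part were counted. The 8 stem cell markers were present in all libraries, with sums of 126000 to 160500 normalised counts. The 7 fibroblast or feeder markers summed to 267 in the wild type and to 39.4 to 87.8 in the converted libraries, and Lum was at 0 throughout. Trophoblast marker sums were highest in line F (2218 and 5049, against 965 to 2152 elsewhere), most of it Krt8 and Krt18. Primitive endoderm marker sums were 86.3 and 300.4 in line F, against 72.7 to 184.9 elsewhere. Over all libraries, neuron marker sums were 824 to 1894 and mesoderm marker sums 219.4 to 556.9. The part of these markers in the results was not tested.

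The 56 genes were expressed at a median of 1438 normalised counts per gene (mean over libraries, range 366.5 to 5658), against 339.9 for all 15240 genes tested. The fewest reads behind any value were 286, for Med27. Levels were even across libraries: the highest library exceeded the lowest by a median of 1.48-fold, against 1.90-fold over all genes tested, and 51 of 56 genes stayed under 2-fold. The narrowest range was that of Gtf2e1 (1.09-fold), which encodes the larger TFIIE subunit, with 1586 to 1735 normalised counts. The widest was that of Polr2a (2.60-fold), followed by Gtf2a1 (2.36-fold), Med13l (2.17-fold), Ercc3 (2.07-fold) and Polr2k (2.04-fold). Higher counts carry less sampling noise, and the genes' higher level was not matched in this comparison. Replicates of the 56 genes differed by a median of 0.16 (line D), 0.14 (line F) and 0.19 (line F&D) on the log2 scale.

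Per kilobase of exon, the polymerase genes Polr2i and Polr2j stood highest. The median library level was 2526 normalised counts per kilobase for Polr2i and 2454 for Polr2j among the subunits found only in polymerase II, and 355 for Polr2c, the lowest of that group. Among subunits shared with polymerases I and III, Polr2e was highest (1806) and Polr2l lowest (680.1). In TFIIA, Gtf2a2 had 387 and Gtf2a1 299 per kilobase, and Gtf2b, which is TFIIB, had 230.5. TFIIE ranged from 260.5 (Gtf2e1) to 710.3 (Gtf2e2), and TFIIF from 651 (Gtf2f2) to 1440.0 (Gtf2f1). In TFIIH, the core ran from Gtf2h2 (162) to Gtf2h1 (1391), and the kinase module from Mnat1 (195) to Cdk7 (592).

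Mediator genes spanned a lower range by the same measure, from 52.2 to 744. The head ranged from Med20 (86.9 normalised counts per kilobase) to Med11 (551), the middle from Med1 (191) to Med19 (744), and the tail from Med15 (52.2) to Med24 (272). Subunits between head and tail ran from Med27 (115) to Med29 (461), the kinase module from Cdk8 (96.1) to Ccnc (299), and the scaffold gene Med14 stood at 66.6. RNA per kilobase thus differed by over 10-fold between Med19 and Med15, subunits of the same complex. Exon length here is the union over annotated transcripts, which lowers the value of a gene with long unused exons.

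**Figure D1:**
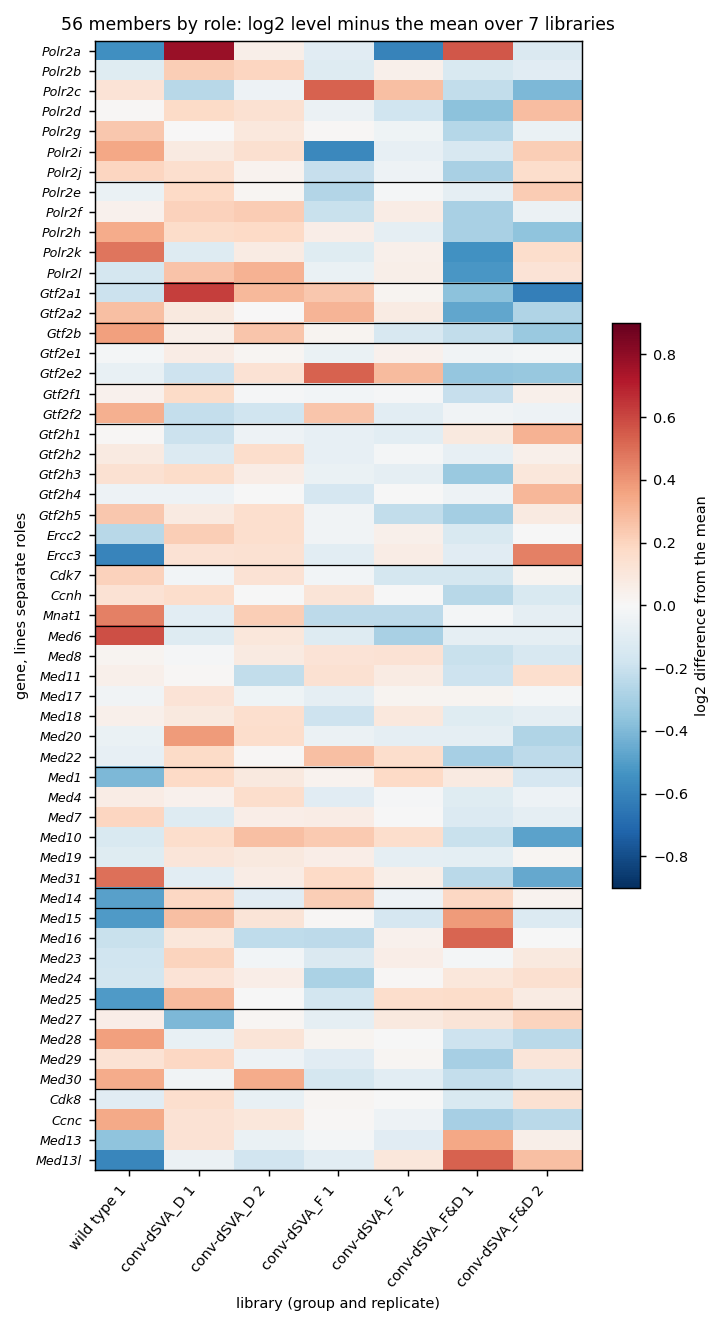
Level of each of the 56 genes in the 7 libraries, drawn as the log2 difference from the gene's mean over the libraries (red above, blue below). Horizontal lines separate the roles. Strong colours are few; Polr2a, Gtf2a1 and Med13l show the largest swings among libraries.

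The first comparison, line F&D against line D, asks what accompanies the additional entry SVAdel, by its name a deletion. Differences are given as the log2 ratio of the former to the latter group, ± standard error, from limma with Benjamini-Hochberg adjustment over 15240 genes. Gtf2a1 and Polr2h were lower in line F&D, and no member was higher. The 2 calls compare with 3.16% of all genes called in either direction, 1.21% called lower and 1.96% called higher. For higher members, edgeR called 0 and DESeq2 called 1, Med13l. At an unadjusted p under 0.05 there were 13 members (23.2%), against 19.8% of all genes tested. In bulk RNA, fewer cells of a type and less RNA per cell cannot be told apart.

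Gtf2a1 encodes the precursor of the large TFIIA subunits, which hold TBP on the promoter. It lies on chromosome 12, 91555262 to 91590487 (GRCm38, minus strand), and its exons overlap no other annotated gene. Its RefSeq promoter sequence is shown because Gtf2a1 had the largest difference of any member between converted lines. The 250 bases before the RefSeq start are printed 5′ to 3′ on the gene's strand (GRCm38.p6), and capitals mark the motifs CGGAAG, 25 to 20 bases before the start, and CACGTG, 13 to 8 bases before it.
Gtf2a1 promoter, chr12:91590488-91590737: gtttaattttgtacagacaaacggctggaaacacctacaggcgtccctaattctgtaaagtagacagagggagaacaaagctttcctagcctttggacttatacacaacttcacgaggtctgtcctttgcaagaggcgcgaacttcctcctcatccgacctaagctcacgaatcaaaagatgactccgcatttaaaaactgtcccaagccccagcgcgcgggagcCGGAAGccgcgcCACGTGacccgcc

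Gtf2a1 stood at 1602 normalised counts in the wild type, 2825 and 2248 in line D, 2168 and 1869 in line F, and 1419 and 1195 in line F&D. Both F&D libraries were the lowest of all 7, and the converted groups did not overlap. Means were 2537 ± 408 (SD, n = 2) in line D and 1307 ± 158 (SD, n = 2) in line F&D. The log2 difference was -0.95 ± 0.15 (limma adjusted p = 0.0161, 95% interval -1.29 to -0.61). Left-out libraries bore on this call: it was lost without line D replicate 1 (difference -0.79) and without line D replicate 2 (-1.12). Over all genes tested, too, these fits called far fewer genes than the main fit. Against line F the difference was -0.63 ± 0.15 (limma adjusted p = 0.0537), and these comparisons share the line F&D libraries. The wild type lay between the groups, so Gtf2a1 levels were above it in lines D and F and below it in line F&D.

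Polr2h encodes RPB8, a subunit common to polymerases I, II and III, on chromosome 16, 20717665 to 20722267 (plus strand). Its exons share 82 bases with Clcn2 on the other strand, and the sources used here do not give the strand setting of the counting. Levels were 2545 normalised counts in the wild type, 2271 and 2289 in line D, 2109 and 1911 in line F, and 1648 and 1569.95 in line F&D. All 4 groups were separate, in the order wild type, line D, line F, line F&D. Line F&D differed from line D by -0.50 ± 0.12 (limma adjusted p = 0.0492), next to the threshold. Leaving out any 1 of the 6 converted libraries ended the call (differences of -0.54 to -0.47), as did edgeR (adjusted p = 0.0563). Fewer of all genes tested passed in these fits as well, except without line F&D replicate 1. Neighbouring converted groups in that order were not separated by a call: the difference was -0.18 between line F and line D (limma adjusted p = 0.475) and -0.32 between line F&D and line F (limma adjusted p = 0.157).

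Next by p-value came 2 Mediator genes. Med10, a subunit of the middle, had 1421 and 1539 normalised counts in line D, 1501 and 1421 in line F, 1112 and 914 in line F&D and 1161 in the wild type. Both F&D libraries were below the 5 others. The difference from line D was -0.55 ± 0.14 (limma adjusted p = 0.0641). DESeq2 called Med10 lower in line F&D than in line D (adjusted p = 0.0248) and than in line F (adjusted p = 0.0287), as did limma without line F&D replicate 1. Of its 4491 exon bases, 4168 overlap Gm26819 on the opposite strand, so without a stated strand setting the 2 cannot be told apart. Med13l, a large subunit of the kinase module that docks it to the core, went the other way, with 2288 and 2103 in line D, 3423 and 2864 in line F&D and a difference of 0.51 ± 0.13 (limma adjusted p = 0.0690).

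**Figure D2:**
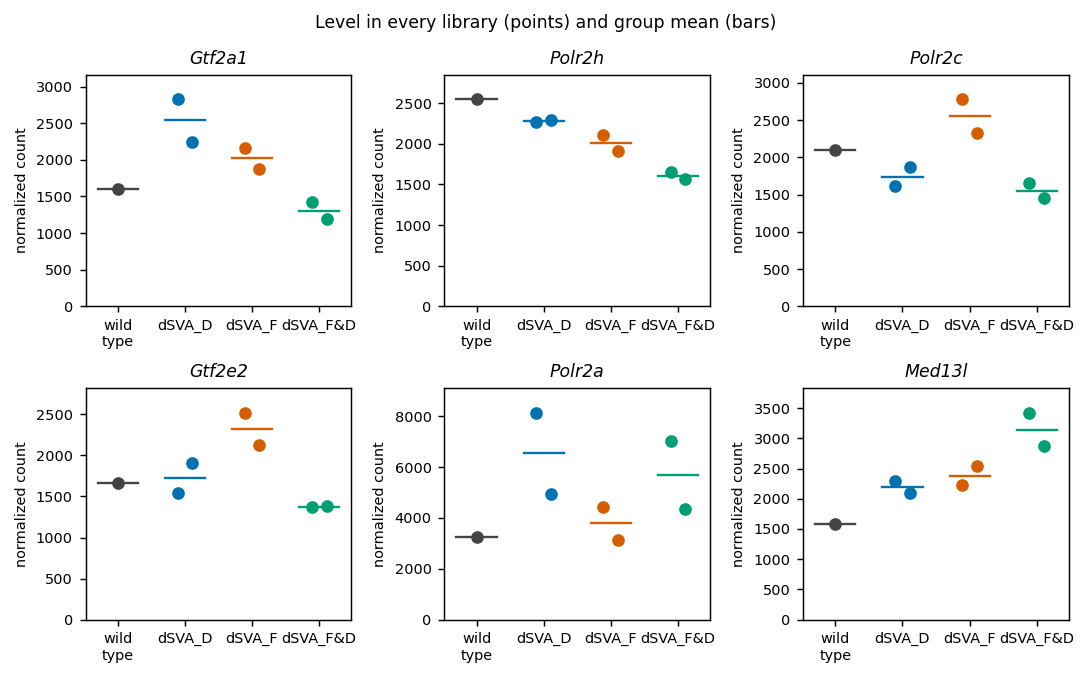
Normalised counts of 6 genes in each library (points; bars are group means, n = 1 for the wild type and n = 2 for each converted group; axes start at 0). Gtf2a1 and Polr2h are lowest in line F&D, Polr2c and Gtf2e2 are highest in line F, and Polr2a replicates lie far apart.

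Below the threshold, most members leaned the same way. The libraries of both lines did not overlap for 29 of 56 members (51.8%), against 49.9% of all genes tested. In line F&D 45 of 56 members (80.4%) were below line D, with a median log2 difference of -0.16, while 50.3% of all genes tested were below and their median was 0.00. The members' higher level was not matched here either. Some related gene lists shared the lean. Below line D were 84.2% of 19 genes for subunits of polymerases I and III (median -0.24), 76.7% of 30 elongation factors (-0.13) and 75.0% of 16 TFIID genes (-0.24). The 6 other Mediator genes did not share it, with 3 below line D and a median of 0.08. All 12 polymerase subunits were below 0 (median -0.20), 13 of 17 general factors (-0.16) and 20 of 27 Mediator subunits (-0.08). Only 1 polymerase subunit, Polr2h, passed in limma and in DESeq2, and none in edgeR. The members' median was -0.07 without line F&D replicate 1, with 38 of 56 below 0, and -0.22 without replicate 2, with 45 of 56 below 0. Against the wild-type library, the members' median was -0.22 in replicate 1 of this line, with 40 of 56 below, and -0.06 to 0.04 in the 5 other converted libraries. Over all genes tested, replicate 1 correlated better with the wild type and each library of lines D and F (r = 0.961 to 0.969) than with replicate 2 (r = 0.959). Replicate 2 was the library with the fewest reads. The read counts of replicate 1 differed least from those of replicate 2, with a chi-square of 33.7 per degree of freedom, against 67.3 for the wild type. For 55 of 56 members the 95% interval lay within 2-fold either way, the exception being Gtf2a1, whereas this held for 8511 of 15240 genes tested. Differences over 2-fold are thus outside the intervals of those 55 genes.

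**Figure D3:**
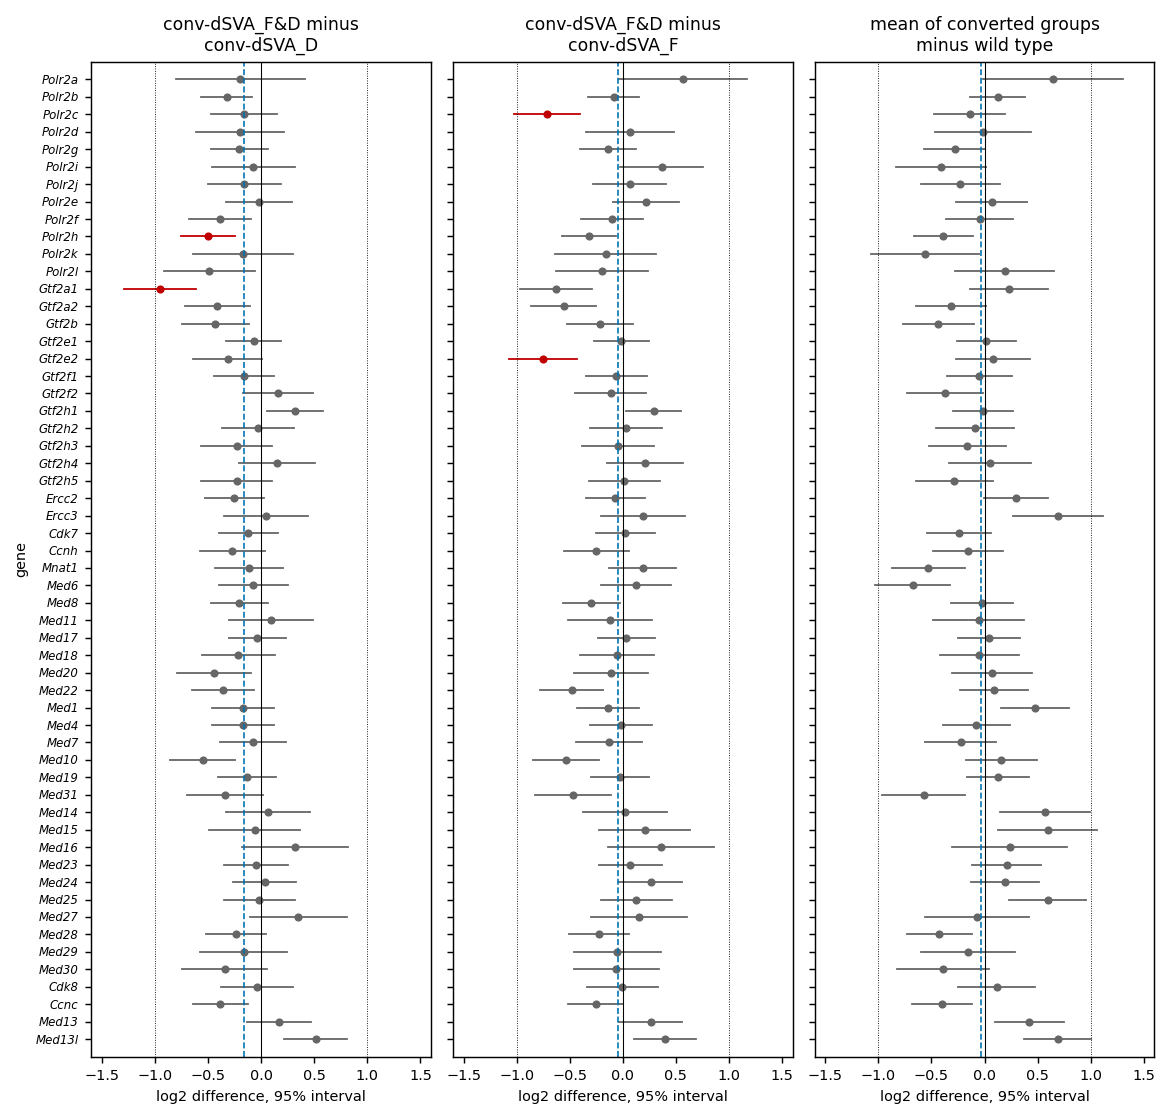
Log2 differences of the 56 genes with 95% intervals in 3 comparisons. Red marks genes with a limma adjusted p under 0.05, the dashed line the median of the 56 genes and dotted lines 2-fold; the median is at -0.16 in line F&D against line D.

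Against line F, 2 members were lower in line F&D, Gtf2e2 and Polr2c, and none was higher, beside 3.92% of all genes called in either direction, 2.21% called lower and 1.71% called higher. Of higher members, edgeR and DESeq2 also called 0. At an unadjusted p under 0.05 there were 11 (19.6%), against 20.7% of all genes tested. Both genes lie on chromosome 8, and they are the only members there. Gtf2e2 encodes the small TFIIE subunit and Polr2c encodes RPB3, a core subunit on which the polymerase assembles.

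Gtf2e2 (33731833 to 33777173, plus strand) stood at 2520 and 2125 normalised counts in line F, 1373 and 1379 in line F&D, 1537 and 1913 in line D and 1668 in the wild type. Both line F libraries were above the 5 others. The difference was -0.75 ± 0.14 (limma adjusted p = 0.0254). Its partner Gtf2e1, on chromosome 16, had -0.01 ± 0.12 in the same comparison.

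Polr2c (94857450 to 94873535, plus strand) stood at 2778 and 2323 normalised counts in line F, 1653 and 1456 in line F&D, 1618 and 1868 in line D and 2095 in the wild type. Again line F was highest, with a difference of -0.71 ± 0.14 (limma adjusted p = 0.0270). Of its 5256 exon bases, 953 overlap Dok4 on the other strand. Its promoter is shown as a second called gene with a RefSeq entry; it has 45.6% G and C and 9 CpG in 250 bases, against 51.6% and 16 for Gtf2a1. Capitals mark CCAAT at 231 to 227 and at 73 to 69 bases before the start, and TATAAA at 151 to 146.
Polr2c promoter, chr8:94857200-94857449: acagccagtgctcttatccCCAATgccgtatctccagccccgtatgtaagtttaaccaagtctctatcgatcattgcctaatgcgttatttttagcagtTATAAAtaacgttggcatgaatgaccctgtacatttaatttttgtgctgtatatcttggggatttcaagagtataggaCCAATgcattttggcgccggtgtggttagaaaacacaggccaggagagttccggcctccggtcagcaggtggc

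Genes around both moved with them. Over the wild type, the median log2 level of the 100 nearest tested genes of Polr2c was 0.68 and 0.50 in line F, 0.12 and 0.30 in line D, and 0.00 and 0.02 in line F&D. Polr2c itself was at 0.41 and 0.15, -0.37 and -0.17, and -0.34 and -0.52. For Gtf2e2 the neighbours stood at 0.70 and 0.46, 0.04 and 0.25, and 0.00 and 0.01, and the gene at 0.60 and 0.35, -0.12 and 0.20, and -0.28 and -0.27. Both genes thus followed their neighbours' order over the lines at a lower level. With the median of each chromosome set equal between libraries, the difference between line F&D and line F was -0.22 for Gtf2e2 (limma adjusted p = 0.345) and -0.18 for Polr2c (limma adjusted p = 0.444). With the medians of the 100 neighbours set equal it was -0.17 and -0.13 (limma adjusted p = 0.447 and 0.601). Setting these medians equal ended both calls. Each call was also lost without line F replicate 1 (differences of -0.63 for Gtf2e2 and -0.58 for Polr2c) and without line F replicate 2 (-0.87 and -0.84). The same held without line F&D replicate 2 (-0.75 and -0.62) and without line D replicate 2 (-0.75 and -0.71). Polr2c was further lost without line D replicate 1. Each of these fits also called fewer of all genes tested than the main fit.

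**Figure D4:**
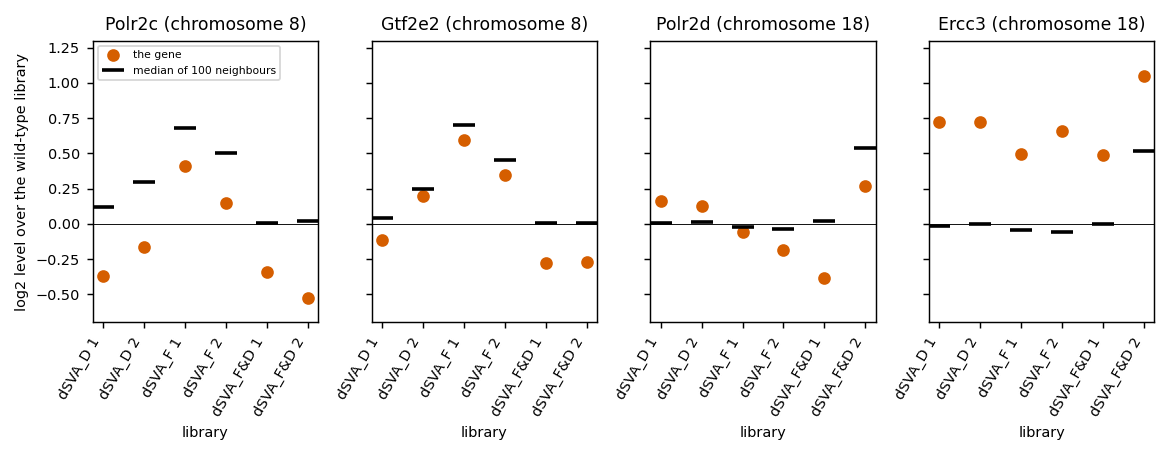
Log2 level over the wild-type library of the 4 members on chromosomes 8 and 18 (points) and the median of their 100 nearest tested genes (bars) in the 6 converted libraries. Polr2c and Gtf2e2 follow their neighbours, which reach 0.68 and 0.70 in line F replicate 1, while Ercc3 lies above its neighbours in every library.

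Chromosome 18 holds 2 members, Polr2d, which encodes the stalk subunit RPB4, and Ercc3, the TFIIH translocase. Their neighbours were raised only in line F&D replicate 2, by 0.54 and 0.51 over the wild type, and lay between -0.06 and 0.02 in the other converted libraries. Polr2d had 1372 and 2156 normalised counts in line F&D, so its replicates stood apart on that chromosome. For the 52 members elsewhere, the neighbour medians ranged from -0.21 to 0.23 over the converted libraries.

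Against line F, next by p-value were both TFIIA genes. Gtf2a2, which encodes the small TFIIA subunit, had 1848 and 1568 normalised counts in line F, 1081 and 1234 in line F&D, 1587 and 1492 in line D and 1799 in the wild type. The F&D libraries were again the lowest, and the difference was -0.56 ± 0.14 (limma adjusted p = 0.0532). With local medians set equal, Gtf2a2 was the 1 member that passed. The libraries did not overlap for 24 of 56 members (42.9%), against 49.3% of all genes tested. Over this comparison the members' median was -0.05 with 33 of 56 below 0, against 51.1% of all genes tested. It turned to 0.02 without line F&D replicate 1. All 6 subunits of the Mediator middle were below 0 in the comparisons with lines D and F, and all 5 tail subunits were above 0 against line F (median 0.20); in limma and edgeR none of these 11 passed, and DESeq2 called Med10 in both comparisons.

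Between line F and line D no member passed in limma, beside 1.35% of all genes tested in either direction, 1.08% higher and 0.262% lower. At an unadjusted p under 0.05 there were 5 members (8.93%, against 16.7% of all genes tested), edgeR called 0 and DESeq2 called 1, Polr2c. The 3 with the smallest p were Polr2c (0.55 ± 0.14, limma adjusted p = 0.0906), Gtf2e2 (0.43 ± 0.14, limma adjusted p = 0.173) and Polr2a (-0.77 ± 0.27, limma adjusted p = 0.197). With local medians set equal, the Gtf2e2 difference was -0.0041. In line F 43 of 56 members (76.8%) were below line D, including 11 of 12 polymerase subunits (median -0.24), against 51.0% of all genes tested. Of the related lists, 87.5% of the TFIID genes, 68.4% of the genes for polymerases I and III, 18 of 30 elongation factors and 3 of 6 other Mediator genes were below line D. The libraries did not overlap for 30 of 56 (53.6%, against 52.0%), and the interval lay within 2-fold for 55 of 56.

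Polr2a encodes RPB1, the catalytic subunit with the tail that TFIIH and Mediator kinases phosphorylate, on chromosome 11, 69733997 to 69758637 (minus strand). It had 3242 normalised counts in the wild type, 8143 and 4938 in line D, 4436 and 3135 in line F, and 7018 and 4345 in line F&D. In each line 1 library exceeded the other by at least 0.50 on the log2 scale (0.72, 0.50 and 0.69), so replicates differed about as much as the group means of lines D and F (0.77). RPB2, its catalytic partner encoded by Polr2b, held 5116 to 6570 and replicate gaps of 0.03, 0.16 and 0.04. The Polr2a promoter is shown because this gene varied most; it has 62.8% G and C and 23 CpG. Capitals mark GGGCGG at 93 to 88, 70 to 65 and 55 to 50 bases before the start, and TATAAA at 33 to 28.
Polr2a promoter, chr11:69758634-69758883: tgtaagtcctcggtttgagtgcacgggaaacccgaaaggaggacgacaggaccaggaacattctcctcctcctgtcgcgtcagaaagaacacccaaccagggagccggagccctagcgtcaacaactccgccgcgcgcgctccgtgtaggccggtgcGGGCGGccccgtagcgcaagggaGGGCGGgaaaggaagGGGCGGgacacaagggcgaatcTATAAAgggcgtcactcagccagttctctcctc

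Across 46 members with a RefSeq promoter entry, the 250 bases held a median of 18 CpG (3 to 51), against 6 over all 32851 promoters of the table, and a median G and C content of 57.2% against 52.4%. Motifs were searched as exact letters on both strands. CGGAAG was found in 34.8% of member promoters and 13.6% of all, GGGCGG in 54.3% and 32.7%, and CACGTG in 15.2% and 6.02%. CCAAT (37.0% and 33.8%), TATAAA (15.2% and 12.4%) and ATGGCGGC (2.17% and 1.03%) completed the search. The motifs share letters with none of the others in the sequences printed. A match describes letters only, and many genes expressed in all tissues have CpG-rich promoters.

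The test over the 3 converted groups together called 3 members, Gtf2a1, Polr2c and Gtf2e2 (moderated F test in limma, adjusted p = 0.0218, 0.0346 and 0.0371), beside 5.58% of all genes tested. At an unadjusted p under 0.05 there were 16 members (28.6%), against 24.5% of all genes tested.

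The mean of the converted lines was compared with the wild type to ask what the shared allele and its making accompany. The single wild-type library is assumed to vary like the others. No member passed in limma, beside 1.15% of all genes tested in either direction, 0.623% higher and 0.525% lower. At an unadjusted p under 0.05 there were 16 members (28.6%, against 18.7% of all genes tested), edgeR called Med6, and DESeq2 called Ercc3, Med13l, Med25 and Med6. Of all 15240 genes tested, edgeR called 305 and DESeq2 857. Without either line F&D library, limma brought Ercc3 and Med13l past the threshold, and without replicate 2 also Med6 and Polr2k. Both fits called more of all genes tested than the main fit, too. With 1 converted library left out, the difference was 0.60 to 0.78 for Ercc3 and 0.64 to 0.73 for Med13l. The members' median was -0.04, with 31 of 56 (55.4%) below 0, against 51.2% of all genes tested. For 26 of 56 (46.4%) every converted library lay on 1 side of the wild type, against 37.8% of all genes tested, and the interval lay within 2-fold for 50 of 56.

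Mediator held the smallest p-values. Med13l stood at 1575 normalised counts in the wild type and at 2103 to 3423 in the converted libraries, a difference of 0.69 ± 0.14 (limma adjusted p = 0.0541). Its paralogue Med13 had 1869.71 and 2240.28 to 3061, a difference of 0.42 ± 0.15 (limma adjusted p = 0.161). Med6, which joins head and middle, stood at 1238 in the wild type and 677 to 887 in the converted libraries, a difference of -0.68 ± 0.16 (limma adjusted p = 0.0698). The tail subunit Med25, a contact of activators, stood at 1278 and at 1623 to 2219, a difference of 0.60 ± 0.16 (limma adjusted p = 0.0977). For each of these 4 genes all 6 converted libraries lay on the same side of the wild type. All 5 tail subunits were above 0 (median 0.24), as was the scaffold gene Med14 (0.57 ± 0.19), while all 4 subunits between head and tail were below (median -0.27). These modules also differ in exon length: 4663 to 11642 bases in the tail, 8763 in Med14 and 1185 to 5011 between head and tail. The part of length in this contrast was not tested. In the kinase module Med13, Med13l and Cdk8, the kinase itself, were above 0 and Ccnc, its cyclin, was below (-0.40 ± 0.13).

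Among general factors, Ercc3 had 875 normalised counts in the wild type, 1443 and 1449 in line D, 1235 and 1380.1 in line F, and 1229.65 and 1809.55 in line F&D. Every converted library was above the wild type, and the difference was 0.69 ± 0.19 (limma adjusted p = 0.102). Ercc2, the other TFIIH helicase, had 0.29 ± 0.13, and shares 1769 exon bases with genes on the opposite strand. All 3 genes of the TFIIH kinase module were below 0, with Mnat1, its assembly factor, at -0.53 ± 0.15 (limma adjusted p = 0.110). Gtf2b had 1349 in the wild type and 826 to 1240.1 in the converted libraries (-0.43 ± 0.15, limma adjusted p = 0.163). Of the polymerase genes 8 of 12 were below 0. Polr2k, which encodes the smallest shared subunit, had 1273 in the wild type and 625 to 1019.7 elsewhere (-0.56 ± 0.23), and a pseudogene named Polr2k-ps could share its reads.

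Exon length tracked this comparison. Of the 14 members with the shortest exon sums (624 to 1730 bases) 13 were below 0 in the converted mean, all but Polr2l, with a median of -0.33. Of the 14 longest (6241 to 15427 bases) 13 were above 0, all but Gtf2h3, with a median of 0.32. Among all protein-coding genes tested, 75.9% of 1210 as short were below 0 (median -0.28) and 63.9% of 3783 as long were above 0 (median 0.13). Spearman's rho between exon length and difference was 0.53 over the 56 members (Pearson's r 0.59 with the length on a log scale) and 0.26 over 12713 protein-coding genes. It was 0.32 to 0.58 for each converted library against the wild type, which they share, and 0.15, 0.21 and -0.02 for line F&D against line D, line F&D against line F and line F against line D. These correlations run across genes of the same libraries and carry no p. RNA quality values were not analysed here, and the part of length in the differences from the wild type was not tested.

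**Figure D5:**
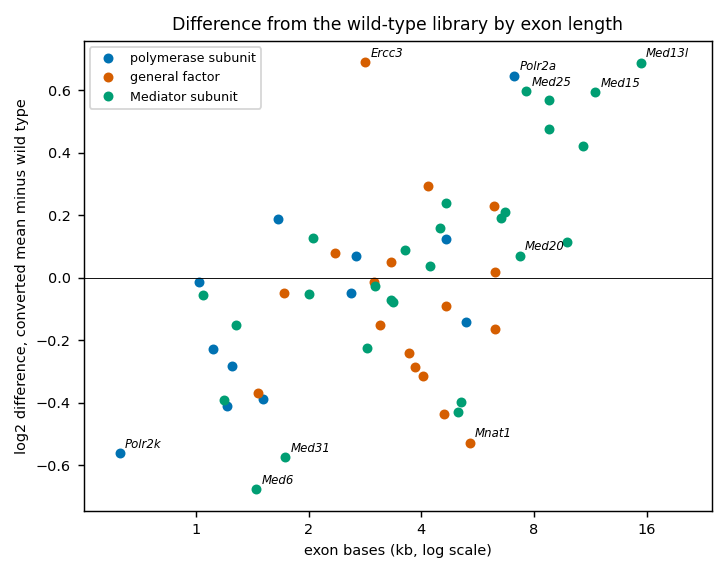
Log2 difference of the converted mean from the wild-type library against exon bases (log axis, kilobases) for the 56 genes, coloured by complex. Short genes such as Polr2k, Med6 and Med31 lie below 0 and long genes such as Med13l, Med15 and Polr2a lie above.

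Genes that act beside the members moved as follows. Of 16 TFIID genes including Tbp, 4 passed between line F&D and line D: Taf1 was higher (1.50 ± 0.15), and Taf12, Taf5 and Taf6 were lower, with Taf12 at -0.99 ± 0.16 and Taf5 at -0.82 ± 0.15. Against line F, Taf1 (1.02 ± 0.15) was higher and Taf12 (-0.84 ± 0.16) lower. Of 6 Mediator genes outside the members, 1 passed in both of these comparisons, Med21, a subunit of the middle. It had 1687 and 1857 normalised counts in line D, 1613 and 1494 in line F, 848 and 1021 in line F&D and 1540.08 in the wild type, differences of -0.93 ± 0.14 (limma adjusted p = 0.0139) and -0.74 ± 0.14 (limma adjusted p = 0.0237). Med21 lies on chromosome 6, and with chromosome medians set equal the difference from line F was -0.34 (limma adjusted p = 0.226) and that from line D -0.80 (limma adjusted p = 0.0187). With the medians of its 100 neighbours set equal, Med21 differed from line D by -0.43 (limma adjusted p = 0.107) and from line F by -0.40 (limma adjusted p = 0.156), and neither passed. Med7, its partner in the middle, and Med10 did not pass in limma, and DESeq2 called Med10 but not Med7 in both comparisons.

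Of 30 elongation and pausing factors 1 passed in the first comparison, Hexim1, an inhibitor of the elongation kinase P-TEFb, which was lower (-0.74 ± 0.13, limma adjusted p = 0.0205). None passed in limma in the second, with 7 at an unadjusted p under 0.05, and edgeR called 0. Of 19 genes for subunits found in polymerases I and III and not in II, 0 passed in limma in the first (6 at an unadjusted p under 0.05, and 0 in edgeR and in DESeq2) and 1 in the second, Polr1a, which encodes the largest polymerase I subunit. Polr1a was lower in line F&D than in line F (-0.64 ± 0.12, limma adjusted p = 0.0247) and higher in the converted mean than in the wild type (0.70 ± 0.13, limma adjusted p = 0.0430). Polr1a too lies on chromosome 6, and with chromosome medians set equal these differences were -0.24 and 0.53 (limma adjusted p = 0.326 and 0.0746). With the medians of its neighbours set equal they were -0.19 and 0.60 (limma adjusted p = 0.458 and 0.0579). Its converted levels were 4356 to 7569 against 3471 in the wild type. Against the wild type, limma called only Taf1 (-2.23 ± 0.17) and Polr1a among the genes of these 4 lists, and edgeR called Med26 and Ell2 as well. DESeq2 called all of these and Taf3, Cdk12, Supt4a and Polr1d. Between line F and line D none of the 4 lists held a gene that passed in limma, with 5, 1, 7 and 5 genes of TFIID, Mediator, elongation and polymerases I and III at an unadjusted p under 0.05. In the same comparison edgeR called 0, and DESeq2 called Taf5, Taf6, Med12l and Polr1a. Most calls in these lists were lost in limma when 1 library was left out. Left-out fits that lost a call also called fewer of all genes tested than the main fit, except that without line F&D replicate 1. In line F&D against line D, leaving out either line D library ended those of Taf12, Taf5, Taf6, Med21 and Hexim1 (adjusted p = 0.111 to 0.233 in limma), and leaving out replicate 1 that of Taf1 (0.0597). Taf5 and Taf6 were further lost without line F&D replicate 2 (0.0642 and 0.0687 in limma), and Taf6 without line F&D replicate 1 (0.0508). Against line F, leaving out any 1 library of line D or line F ended those of Taf12, Med21 and Polr1a (adjusted p = 0.0536 to 0.204 in limma), and leaving out line F replicate 1 that of Taf1 (0.147). The call of Polr1a against the wild type was lost without any 1 of the same 4 libraries (0.0793 to 0.116 in limma).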

How the data were processed

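The deposited signal values were, per the file headers and the values, normalised counts: for each library the authors divided the counts of genes by a single size factor, then rounded. Build mm10, DESeq2, deepTools 3.1.0, featureCounts 1.6.3, Picard 2.18.20, STAR 2.7.3 and Trimmomatic 0.36 are listed in the submitters' processing notes; their roles, the strand setting and the annotation were not stated in any source used here. Reads could be recovered as whole numbers in each library (100% of positive values within 0.1 read of a whole number).

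limma 3.58.1 (R 4.3.3) was fitted with a variance trend on log2 of the normalised count plus 1, for 15240 genes with a mean of at least 10 and 1 mean per group (3 residual and 6.80 prior degrees of freedom). Two-sided p-values were adjusted by Benjamini-Hochberg over the 15240 genes, and 0.05 was the threshold. The added count understates differences of low genes. The fit was tested on simulated data. Positions and exon lengths came from GENCODE M21 (GRCm38), where 93.1% of the table's gene names matched, and promoters from RefSeq (GRCm38.p6, 46 of 56 members). edgeR 4.0.16 and DESeq2 1.42.0 on the recovered reads, other pseudocounts, filters and scalings, and left-out libraries were alternatives.

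The members and lists were chosen with earlier results of these data known. The text names members past the threshold, the 3 with the smallest p where fewer passed, the highest and lowest level per kilobase of each complex, and up to 3 genes past the threshold from each other list; further members were named after their values were seen. The DESeq2 result for the elongation factors between conv-dSVA_F&D and conv-dSVA_F is not reported here.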

Additional observations from a re-analysis of the deposited data

How the results depend on the processing

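The counts of members past the threshold were small and moved with the settings. Against conv-dSVA_D, conv-dSVA_F&D had 2 calls in limma, 4 in DESeq2, 1 in edgeR, with a pseudocount of 0.5, only the libraries compared, TMM scaling or local medians set equal, and 0 with no low-value filter or no variance trend. Against conv-dSVA_F the 2 calls became 6 in DESeq2, 4 with a pseudocount of 5 or a mean of at least 50, 1 with only the libraries compared or local medians set equal, and 0 with chromosome medians set equal, no low-value filter or no variance trend. Between conv-dSVA_F and conv-dSVA_D, 0 became 1 in DESeq2. Against the wild type, 0 became 4 in DESeq2 and 1 in edgeR, with a pseudocount of 5 or with a mean of at least 50. Among the converted groups, 3 became 7 in DESeq2, 1 with chromosome medians set equal, and 0 with no low-value filter or no variance trend. Leaving out 1 library gave 0 to 2, 0 to 4, 0 to 0, 0 to 4 and 0 to 3 calls in these comparisons; with 1 library left in an arm, it was assumed to vary like the other groups. Calls over all genes tested moved too. In these comparisons in turn, limma called 482, 597, 205, 175 and 850 of 15240 genes. The counts were 463, 553, 225, 305 and 835 in edgeR, and 1041, 1211, 729, 857 and 1887 in DESeq2. With no low-value filter or no variance trend, 0 of all genes passed in the first, second and last comparison. The counts of 0 members in those fits are thus not particular to the members. Left-out libraries changed the calls over all genes as well. The cause of these changes was not tested.

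The call of Gtf2a1 between conv-dSVA_F&D and conv-dSVA_D held in 14 of 18 alternatives and that of Polr2h in 5; against conv-dSVA_F, Gtf2e2 held in 10 and Polr2c in 8. The difference of Gtf2e2 between conv-dSVA_F and conv-dSVA_D changed sign with local medians set equal, to -0.0041. Alternatives were tallied only for members with an unadjusted p under 0.05 in a comparison, most of them not called in the main fit. Of the other such values, 986 kept their side of the threshold, and their direction where the test gives one. A further 35 passed the threshold and 60 fell below it. No paired analysis was possible because the labels give no replicate numbers and nothing else ties libraries of different lines. With 2 libraries a group and 1 wild type, standard errors of the members were 0.11 to 0.27 between converted groups and 0.12 to 0.29 against the wild type.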
